A study of Sus scrofa with 37 samples.

Results

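RNA sequencing of contused skeletal muscle, bruised by a blunt blow, was compared between 8 h and 4 h after the injury in Bama minipigs, small pigs bred for research. The comparison used 8 of the 37 libraries of the series, the 4 taken at 8 h (replicates 1 to 4) against the 4 taken at 4 h (replicates 1 to 4), and covered every gene of the count table. The 9 libraries labelled as controls and the later times (12 to 48 h) are given as levels beside the result. They also entered the fit of all 37 libraries that estimated the spread behind each test. All 37 libraries, the controls too, carry mechanical damage as their treatment, which leaves the handling of control muscle unstated, and no age, sex or genotype is labelled. The design text gives 8 animals for the series without tying libraries to animals, so every p-value measures only the spread between libraries.

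A contusion crushes muscle fibres and small vessels, and the damaged tissue releases signals that activate resident macrophages, endothelium and stromal cells. Neutrophils enter earliest and monocytes, which mature into macrophages, follow them. Fibroblasts, fibro-adipogenic progenitors, pericytes and satellite cells, the stem cells of muscle, take part in the later repair. In RNA from whole tissue, fewer cells of a type and less RNA per cell cannot be told apart.

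The tissue label was met by muscle markers at high levels in both groups. CKM, the muscle creatine kinase, lay between 21747 and 26274 CPM (counts scaled to a common library total with TMM factors) at 8 h and between 29360 and 39287 CPM at 4 h. DES (desmin) lay between 5871 and 9852 CPM at 8 h and between 3952 and 5941 CPM at 4 h. The T and B cell markers CD3E, CD3D, MS4A1 and CD79A were not among the rows of the table. Column totals were 10552248 to 13483018 counts at 8 h, 10872582 to 21541186 counts at 4 h and 10330042 to 12288227 counts in the controls. A floor of 3 counts corresponded to 0.252 to 0.331 CPM at 8 h and to 0.175 to 0.343 CPM at 4 h, for counting error only.

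The libraries of the series were divided into 5 sets by cut-offs on the column total and the levels of C1QBP, NDUFAF8 and ND6. Replicates 1, 2 and 3 at 8 h were in set 1 and replicate 4 at 8 h was in set 5, whereas replicates 1, 2 and 4 at 4 h were in set 2 and replicate 3 at 4 h was in set 3. NDUFAF8 and MRPL57 are small nuclear genes for mitochondrial proteins. C1QBP, a mitochondrial matrix protein gene, was at 25.7, 20.8, 16.3 and 0.110 CPM in replicates 1 to 4 at 8 h, against 0, 0.204, 0.702 and 0 CPM at 4 h. No set held libraries of both times, so the time and the set cannot be told apart within this pair. With the 5 sets as a term in the fit over all 37 libraries, edgeR called 0 genes between 8 h and 4 h, with 841 at an unadjusted p under 0.05; limma-voom called 0 and DESeq2 called 19. The standard errors of the log2 changes were then larger, with a median of 0.372 against 0.254 without the sets. Of the genes called without the sets, 2744 kept their direction with them and 206 took the opposite one.

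Without a set term, 2950 of 9411 genes tested (31.3%) differed between 8 h and 4 h at an adjusted p of 0.05 in edgeR's quasi-likelihood test with Benjamini-Hochberg adjustment. Of all genes tested, 1502 (16.0%) were called higher at 8 h and 1448 (15.4%) lower. A change of at least 2-fold was seen in 1320 of the called genes, 746 higher and 574 lower. The 4 libraries at 8 h did not overlap the 4 at 4 h in 2289 genes (24.3%). The median log2 change of all genes was -0.02. The count called was 1610 without replicate 1 at 8 h, 1938 without replicate 2 at 8 h and 1927 without replicate 1 at 4 h, while it was 3536 without replicate 4 at 8 h.

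**Figure D1:**
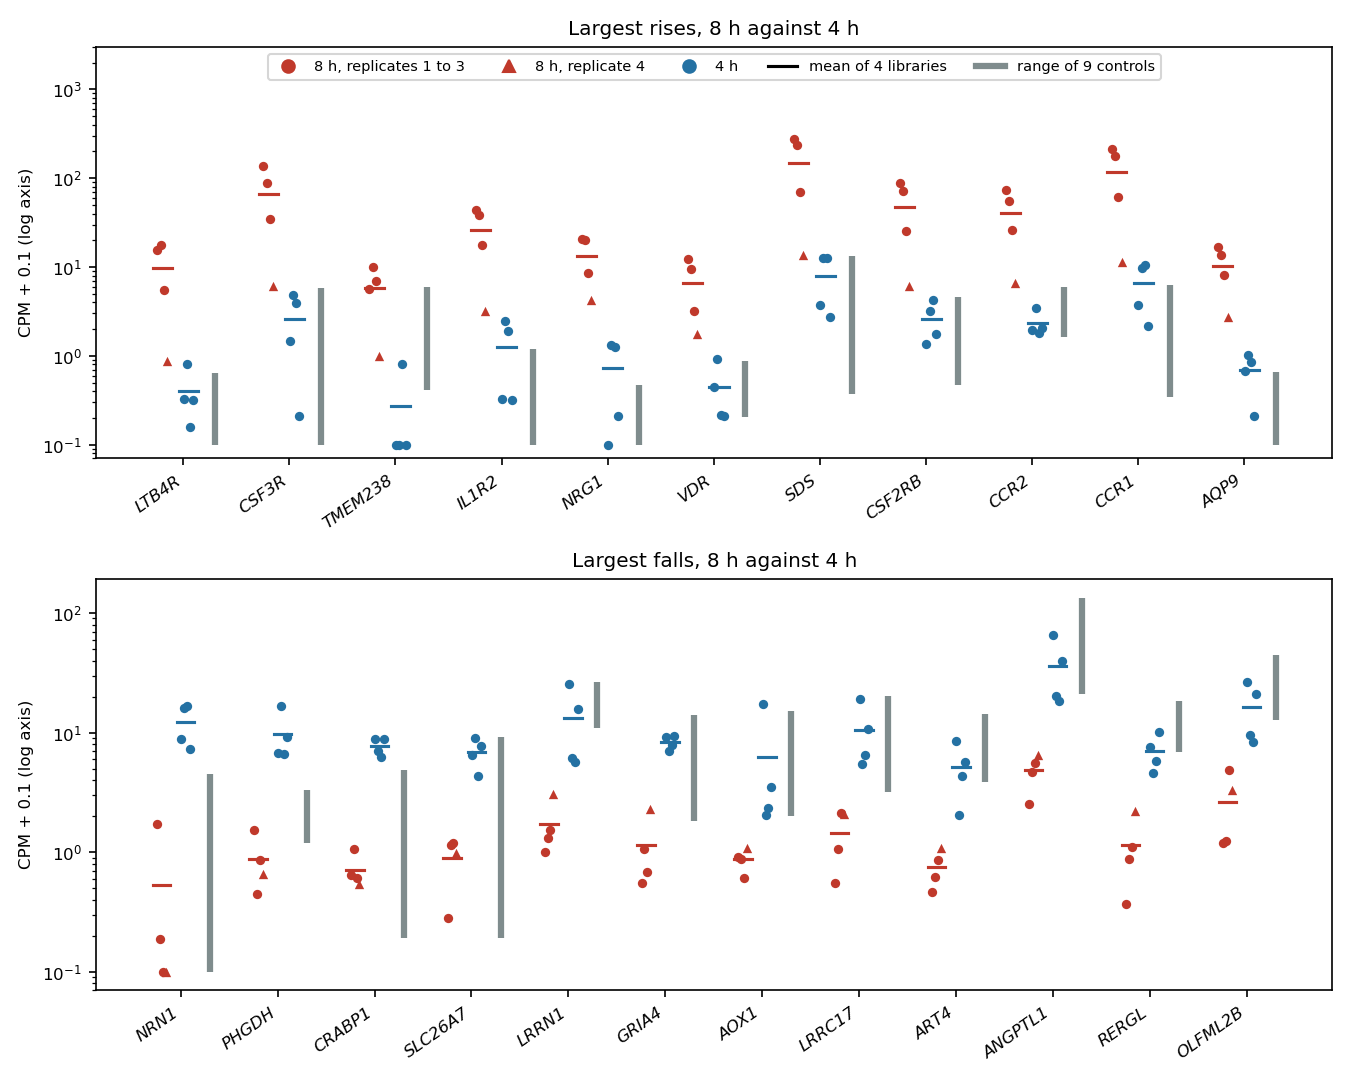
CPM (plus 0.1, on a log axis) of 11 of the 12 genes with the largest rises and of the 12 with the largest falls at 8 h against 4 h, with a point for each library, a bar at the mean of 4 libraries and the range of the 9 controls in grey. Among the rises plotted the lowest value at 8 h was replicate 4 in every gene, and it lay above all 4 libraries at 4 h, as the choice of these genes requires.

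Receptor genes of circulating leukocytes were among the largest rises at 8 h. LTB4R, the receptor of the neutrophil attractant leukotriene B4 (chromosome 7, 74972723 to 74978266 in Sscrofa11.1), was at 15.3, 17.4, 5.46 and 0.772 CPM in replicates 1 to 4 at 8 h, against 0.229, 0.713, 0.0585 and 0.219 CPM at 4 h. Its log2 change was 5.05 ± 0.99 (SE, adjusted p = 0.000815), and the 9 controls lay between 0 and 0.548 CPM. CSF3R, the receptor of granulocyte colony-stimulating factor (chromosome 6, 92550159 to 92565798), was at 137, 88.9, 34.7 and 5.96 CPM at 8 h, against 1.37, 4.79, 3.80 and 0.110 CPM at 4 h. In both genes replicate 4 at 8 h stood far below the other libraries of its time. The groups did not overlap, as the choice of these genes requires. The gap in LTB4R was narrow, between 0.772 CPM in replicate 4 at 8 h and 0.713 CPM in replicate 2 at 4 h. In these libraries 3 counts correspond to 0.331 and 0.306 CPM. The log2 change of CSF3R was 4.68 ± 1.04 (SE, adjusted p = 0.00198).

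IL1R2, a decoy receptor for interleukin-1 made by neutrophils and monocytes, was at 44.0, 38.0, 17.8 and 3.09 CPM at 8 h, against 0.229, 2.34, 1.81 and 0.219 CPM at 4 h (log2 change 4.41 ± 0.99 SE, adjusted p = 0.00215). The platelet-activating factor receptor PTAFR, the integrin chain ITGB2 and the NADPH oxidase subunit NCF4 rose by 3.98, 2.74 and 2.74 on the log2 scale. Of the 14 neutrophil genes tested, 13 were called higher and 0 lower, with a median log2 change of 3.15, against 16.0% called higher among all genes. Their median fell to 1.18 with the sets as a term. The summed level of the list was 600.4 to 1250.1 CPM at 8 h, 245 to 570.1 CPM at 4 h and 266 to 460.4 CPM in controls. The count called was 12 or 13 whichever single library was left out.

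Monocyte and macrophage genes were also higher. CCR2, the chemokine receptor that brings monocytes into tissue (chromosome 13, 29368735 to 29374564), was at 73.0, 55.1, 26.3 and 6.51 CPM at 8 h, against 1.83, 3.36, 1.70 and 1.97 CPM at 4 h. Its log2 change was 4.19 ± 0.74 (SE, adjusted p = 0.000405), and all 4 libraries at 4 h lay within the control range of 1.54 to 5.79 CPM. CD14, a co-receptor for bacterial lipopolysaccharide, was at 178, 89.8, 58.3 and 17.4 CPM at 8 h, against 5.03, 10.9, 11.9 and 3.07 CPM at 4 h. The receptor of macrophage colony-stimulating factor, CSF1R, was at 125, 81.8, 61.1 and 17.5 CPM at 8 h, against 8.35, 13.2, 13.7 and 10.6 CPM at 4 h, and its log2 change was 2.63 ± 0.53 (SE, adjusted p = 0.00102). At 4 h replicates 1 and 4 were below the control range of CSF1R, 12.5 to 33.1 CPM, and at 8 h replicates 1 to 3 were above it. CCR1, a receptor for inflammatory chemokines, rose by 4.14 on the log2 scale, and CSF2RB, the shared receptor chain for interleukin-3, interleukin-5 and granulocyte-macrophage colony-stimulating factor, by 4.19. Of 27 genes of this list tested, 14 were called higher and 0 lower, with a median log2 change of 1.71 (0.51 with the sets as a term). Without replicate 1 at 8 h 9 of the list were called higher. The share called higher among all genes was 16.0% in the full fit.

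The remaining genes among the 12 largest rises were not leukocyte receptors. NRG1, a ligand of ERBB receptors, was at 20.8, 19.8, 8.56 and 4.19 CPM at 8 h, against 0, 1.22, 1.17 and 0.110 CPM at 4 h (log2 change 4.29 ± 0.94 SE, adjusted p = 0.00172). SDS, a serine dehydratase that turns serine into pyruvate (chromosome 14, 38503922 to 38513908), was at 279, 234, 69.2 and 13.6 CPM at 8 h, against 3.66, 12.5, 12.5 and 2.63 CPM at 4 h, and rose by 4.23 ± 1.11 (SE, adjusted p = 0.00596) on the log2 scale. VDR, the vitamin D receptor, and AQP9, a glycerol and water channel of leukocytes, rose by 4.28 and 4.06. TMEM238 rose by 4.58, and it is among the genes whose level goes with the sets: it was at 3.38 to 5.84 CPM in the 2 controls of set 1 and at 0.307 to 1.65 CPM in the other 7 controls. Of these 12 genes, 10 were above all 9 controls in all 4 libraries at 8 h. Replicate 1 at 8 h was the highest library in 10 of the 12 genes and exceeded replicate 4 by 4.96 to 22.9 times. With the sets as a term all 12 kept their direction, the median of their log2 changes was 1.61 in place of 4.29, and 1 of 12, CCR2, had an unadjusted p under 0.05.

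Chemokine and cytokine genes moved less uniformly. CXCL8, the interleukin-8 gene that attracts neutrophils, was at 340, 180, 35.9 and 3.09 CPM at 8 h, against 1.03, 5.61, 4.33 and 3.40 CPM at 4 h. Replicate 4 at 8 h lay inside the range of the 4 h libraries, so the groups overlapped, although the gene was called with a log2 change of 5.26 ± 1.38 (SE, adjusted p = 0.00581). With the sets as a term its change was 0.63 with 5 sets and turned to -0.36 with 4. AMCF-II, a pig CXC chemokine with close homologues among which reads may be split, was at 21.9, 16.4, 9.40 and 1.66 CPM at 8 h, against 0.457, 2.14, 1.29 and 0.219 CPM at 4 h; its call was lost without replicate 1 at 8 h (adjusted p = 0.0501). CXCL12, which stromal cells make to retain leukocytes and stem cells, fell to 39.2, 57.7, 72.6 and 79.1 CPM at 8 h, against 218, 131, 154 and 169 CPM at 4 h (log2 change -1.43 ± 0.40 SE, adjusted p = 0.00819). Of 11 chemokines tested, 3 were called higher and 1 lower (1 higher without replicate 1 at 8 h). The shares of all genes were 16.0% higher and 15.4% lower.

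Among 15 cytokines and growth factors tested, 6 were called higher and 2 lower, with a median log2 change of 1.77 (0.93 with the sets as a term; 3 higher without replicate 1 at 8 h). The lower calls were 1 with column totals and whichever library was left out other than replicate 1 at 4 h. Over all genes 16.0% were called higher and 15.4% lower. EREG (epiregulin, a ligand of the epidermal growth factor receptor) was at 16.9, 18.7, 12.3 and 8.39 CPM at 8 h, against 4.46, 3.26, 1.70 and 3.40 CPM at 4 h. Its log2 change was 2.15 ± 0.41 (SE, adjusted p = 0.000627), and it changed little with the sets as a term, at 1.78. CSF1, the growth factor of macrophages, was at 354, 333, 234 and 81.9 CPM at 8 h, against 27.6, 130, 95.2 and 38.1 CPM at 4 h, where replicates 2, 3 and 4 exceeded the control maximum of 30.8 CPM, and the groups overlapped. HGF, the hepatocyte growth factor that activates satellite cells, fell to 2.62, 2.08, 2.94 and 3.75 CPM at 8 h, against 5.83, 9.27, 8.71 and 11.0 CPM at 4 h (log2 change -1.61 ± 0.34 SE, adjusted p = 0.00128). Its receptor gene MET fell by 1.05.

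SOCS (suppressor of cytokine signalling) and NF-kB feedback genes, taken as 1 list, were higher at 8 h. Of 19 tested, 13 were called higher and 0 lower, and in 8 the groups did not overlap. Over all genes 16.0% were called higher and 24.3% did not overlap. The median log2 change was 1.30 (0.57 with the sets as a term). NFKB2, a subunit of the non-canonical NF-kB pathway (chromosome 14, 113406412 to 113414177), was at 59.0, 62.5, 56.7 and 36.6 CPM at 8 h, against 9.03, 14.6, 16.8 and 10.1 CPM at 4 h, with controls at 12.3 to 19.7 CPM. Its level at 4 h had thus not left the control range upwards in any library, and the log2 change was 2.08 ± 0.32 (SE, adjusted p = 9.19e-05). Its partner RELB was at 38.0, 29.3, 26.2 and 17.3 CPM at 8 h, against 4.92, 9.58, 7.60 and 2.74 CPM at 4 h. ZC3H12A, an RNase that degrades cytokine transcripts, rose by 2.42 ± 0.51 (SE, adjusted p = 0.00133). STAT3, the factor that transmits interleukin-6 signals, was at 750, 677, 658 and 446 CPM at 8 h, against 72.6, 368, 315 and 193 CPM at 4 h, with controls at 61.4 to 106 CPM. Replicate 1 at 4 h was inside the control range for STAT3 and the other 3 libraries at 4 h were above it.

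Immediate early genes, which are transcribed within minutes of a stimulus, mostly did not pass the test. Of 22 tested, 3 were called higher (DUSP2, IER3 and ZFP36) and 0 lower, a share below the 16.0% of all genes. DUSP2, a phosphatase of MAP kinases, and IER3 rose by 3.65 ± 0.84 and 2.17 ± 0.51 (SE, adjusted p = 0.00237 and 0.00289). MYC had 208, 218, 138 and 65.9 CPM at 8 h, against 11.5, 101, 108 and 29.3 CPM at 4 h, and did not pass the test (log2 change 1.33 ± 0.53 SE, adjusted p = 0.0534). All 22 were at their lowest 4 h level in replicate 1, and 20 of 22 at their highest 4 h level in replicate 3. Without replicate 4 at 8 h, or without replicate 3 at 4 h, 7 were called higher, and 9 without both.

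**Figure D2:**
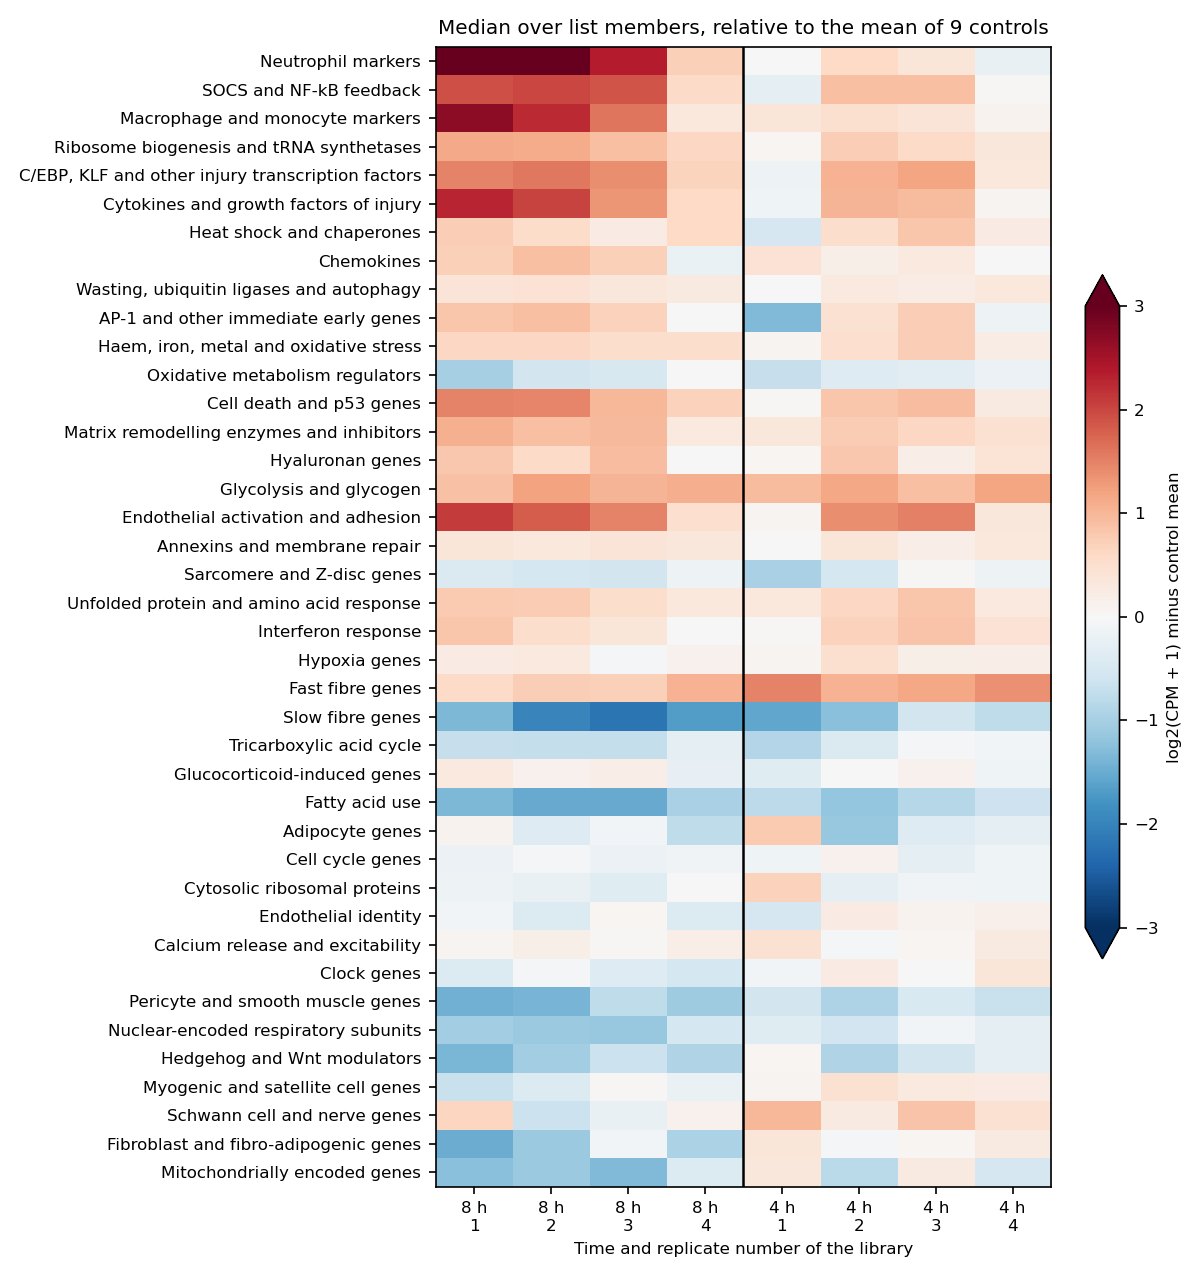
Median over the members of each gene list of log2(CPM + 1) minus the mean of the 9 controls, for each library at 8 h (left) and 4 h (right), with red above and blue below the control mean. The neutrophil row reads 3.93, 3.51, 2.35 and 0.73 in replicates 1 to 4 at 8 h and 0.00, 0.59, 0.36 and -0.22 at 4 h. Replicate 4 at 8 h is the lowest 8 h library in the neutrophil, macrophage, chemokine, cytokine, SOCS and NF-kB, and immediate early rows.

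Libraries of each time differed among themselves along the same lists. In replicate 4 at 8 h, 13 of 14 neutrophil genes, 23 of 27 macrophage genes and all 19 SOCS and NF-kB feedback genes had their lowest 8 h level. The median of the macrophage genes relative to the control mean was 2.69, 2.23, 1.61 and 0.33 (log2) in replicates 1 to 4 at 8 h and 0.36, 0.47, 0.40 and 0.11 at 4 h. For immediate early genes it was 0.84, 0.91, 0.69 and -0.02 at 8 h and -1.32, 0.45, 0.74 and -0.16 at 4 h. Rank correlations of CPM across genes between libraries were 0.915 to 0.989 at 8 h and 0.907 to 0.970 at 4 h.

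Transcription factors of the C/EBP and Krüppel-like families and others of tissue injury were also higher. Of 20 tested, 8 were called higher and 0 lower, against 16.0% and 15.4% of all genes. Their median log2 change was 1.05 (-0.07 with the sets as a term). CEBPG, a C/EBP factor that pairs with ATF4, had one of the smallest p-values. It was at 147, 138, 119 and 122 CPM at 8 h, against 54.5, 68.5, 70.7 and 43.1 CPM at 4 h, and the controls lay between 27.1 and 43.2 CPM. Its libraries were alike within each time, unlike those of the leukocyte genes, and its log2 change of 1.15 ± 0.16 (SE, adjusted p = 5.01e-05) was 1.09 with the sets as a term. CEBPB, which drives inflammatory transcription in macrophages and is needed for muscle repair in mice, was at 1077, 867, 670 and 160 CPM at 8 h, against 79.0, 116, 208 and 57.8 CPM at 4 h (log2 change 2.59 ± 0.47 SE, adjusted p = 0.000484). CEBPA rose by 3.07 and SNAI1, a repressor of epithelial genes, by 1.81; with the sets as a term the sign of CEBPA turned (-0.28). The stress gene GADD45A was at 1010, 949, 557 and 303 CPM at 8 h, against 49.8, 251, 285 and 46.7 CPM at 4 h, and rose by 2.15.

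The other rises with the smallest p-values did not overlap between the times. ZNF622, a zinc-finger protein of ribosomal subunit maturation, was at 62.8, 63.5, 56.3 and 53.4 CPM at 8 h, against 14.3, 14.1, 24.1 and 14.6 CPM at 4 h. ZBTB7A, a zinc-finger repressor, was at 67.5, 58.0, 56.2 and 44.8 CPM at 8 h, against 19.7, 25.1, 24.1 and 22.2 CPM at 4 h. In both genes some 4 h libraries were below all controls and all 8 h libraries were above them, with control ranges of 19.7 to 44.4 CPM for ZNF622 and 22.5 to 37.2 CPM for ZBTB7A. SLC12A4, a potassium-chloride cotransporter, and MAPKAPK3, a kinase downstream of p38, rose by 1.42 ± 0.21 and 1.05 ± 0.16 (SE, adjusted p = 7.81e-05 for both).

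Ribosome biogenesis genes were called higher more often than all genes, with smaller changes than those of the leukocyte genes, and chaperones were mixed. Of 25 ribosome biogenesis and tRNA synthetase genes tested, 11 were called higher and 0 lower, against 16.0% and 15.4% of all genes. Their median log2 change was 0.47 (0.56 with the sets as a term). DKC1, the pseudouridine synthase dyskerin, was at 128, 117, 92.0 and 61.6 CPM at 8 h, against 22.7, 68.4, 55.9 and 30.9 CPM at 4 h, a log2 change of 1.16 ± 0.29 (SE, adjusted p = 0.00432). NOP58, a core protein of small nucleolar particles, POLR1B, a subunit of RNA polymerase I, and RRP12 rose by 0.94, 0.69 and 0.68. HSPA8, the constitutive HSP70 chaperone, was at 7581, 5734, 4601 and 4510 CPM at 8 h, against 1623, 3358, 3035 and 2119 CPM at 4 h (log2 change 1.15 ± 0.27 SE, adjusted p = 0.0029). Its co-chaperone BAG3, which works with it at the muscle Z-disc, rose by 1.23, and the Z-disc and actin linker FLNC, a client of BAG3, rose by 1.35 but lost its call without replicate 1 or replicate 4 at 4 h (adjusted p = 0.0571 and 0.0622). DNAJB4, another HSP70 partner, fell by 1.38. Over the 13 chaperones 4 were called higher and 1 lower, and 2 were called higher without replicate 1 at 8 h or replicate 1 at 4 h.

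Single genes of the unfolded protein and amino acid response had large changes in opposite directions. TRIB3, a pseudokinase induced by ATF4, was at 24.2, 24.5, 22.0 and 11.0 CPM at 8 h, against 1.14, 2.75, 4.62 and 1.21 CPM at 4 h (log2 change 3.02 ± 0.62 SE, adjusted p = 0.00119), and TARS3, a threonyl-tRNA synthetase gene, rose by 2.71. PHGDH, the enzyme that starts serine synthesis (chromosome 4, 101445977 to 101478144), fell to 1.45, 0.347, 0.756 and 0.552 CPM at 8 h, against 6.63, 16.5, 6.49 and 9.11 CPM at 4 h. The controls lay between 1.10 and 3.19 CPM, so all 4 libraries at 4 h were above them and 3 of 4 at 8 h were below them. The log2 change of PHGDH was -3.62 ± 0.50 (SE, adjusted p = 5.01e-05) and stayed at -3.15 with the sets as a term, with an unadjusted p of 9.7e-05. NUPR1, a stress-induced chromatin protein, fell to 6.51, 8.85, 18.1 and 19.0 CPM at 8 h, against 114, 25.3, 31.3 and 45.1 CPM at 4 h. Of the 21 genes tested, 4 were called higher (2 without replicate 2 at 8 h, or replicates 1 or 4 at 4 h) and 3 lower, shares near the 16.0% and 15.4% of all genes.

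The largest falls differed in how they stood against the controls. NRN1, PHGDH and CRABP1 were above all 9 controls in all 4 libraries at 4 h and within or below the control range at 8 h. NRN1, which codes for neuritin, a membrane-anchored neuronal growth protein (chromosome 7, 3682568 to 3691328), was at 1.63, 0.0868, 0 and 0 CPM at 8 h, against 8.80, 15.9, 16.7 and 7.24 CPM at 4 h (log2 change -4.78 ± 1.21 SE, adjusted p = 0.00457). CRABP1, a cellular retinoic acid binding protein, was at 0.542, 0.955, 0.504 and 0.441 CPM at 8 h, against 8.80, 6.93, 6.20 and 8.67 CPM at 4 h (log2 change -3.61 ± 0.68 SE, adjusted p = 0.000609).

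Another 7 of the 12 genes were below all controls in all 4 libraries at 8 h. These were LRRN1, AOX1, LRRC17, ART4, ANGPTL1, RERGL and OLFML2B. ANGPTL1, a secreted angiopoietin-like protein (chromosome 9, 120656313 to 120684313), was at 2.44, 4.60, 5.46 and 6.40 CPM at 8 h, against 65.2, 20.0, 18.2 and 39.7 CPM at 4 h, with controls at 20.8 to 134 CPM. OLFML2B, a secreted olfactomedin-like matrix protein, was at 1.08, 1.13, 4.79 and 3.20 CPM at 8 h, against 26.5, 9.38, 8.24 and 20.8 CPM at 4 h (log2 change -2.66 ± 0.42 SE, adjusted p = 0.000129). AOX1, an aldehyde oxidase, had a single high library at 4 h: it was at 0.813, 0.781, 0.504 and 0.993 CPM at 8 h, against 17.1, 1.94, 2.22 and 3.40 CPM at 4 h. The other 4 genes fell by 2.75 to 3.02 on the log2 scale. The remaining 2 genes were GRIA4, a glutamate receptor subunit, which fell by 3.00, and SLC26A7, an anion transporter, which fell by 3.06 and lost its call without replicate 1 at 8 h (adjusted p = 0.0716). With the sets as a term all 12 falls kept their direction, the median of their log2 changes was -2.43 in place of -2.99, and 11 of 12 had an unadjusted p under 0.05.

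**Figure D3:**
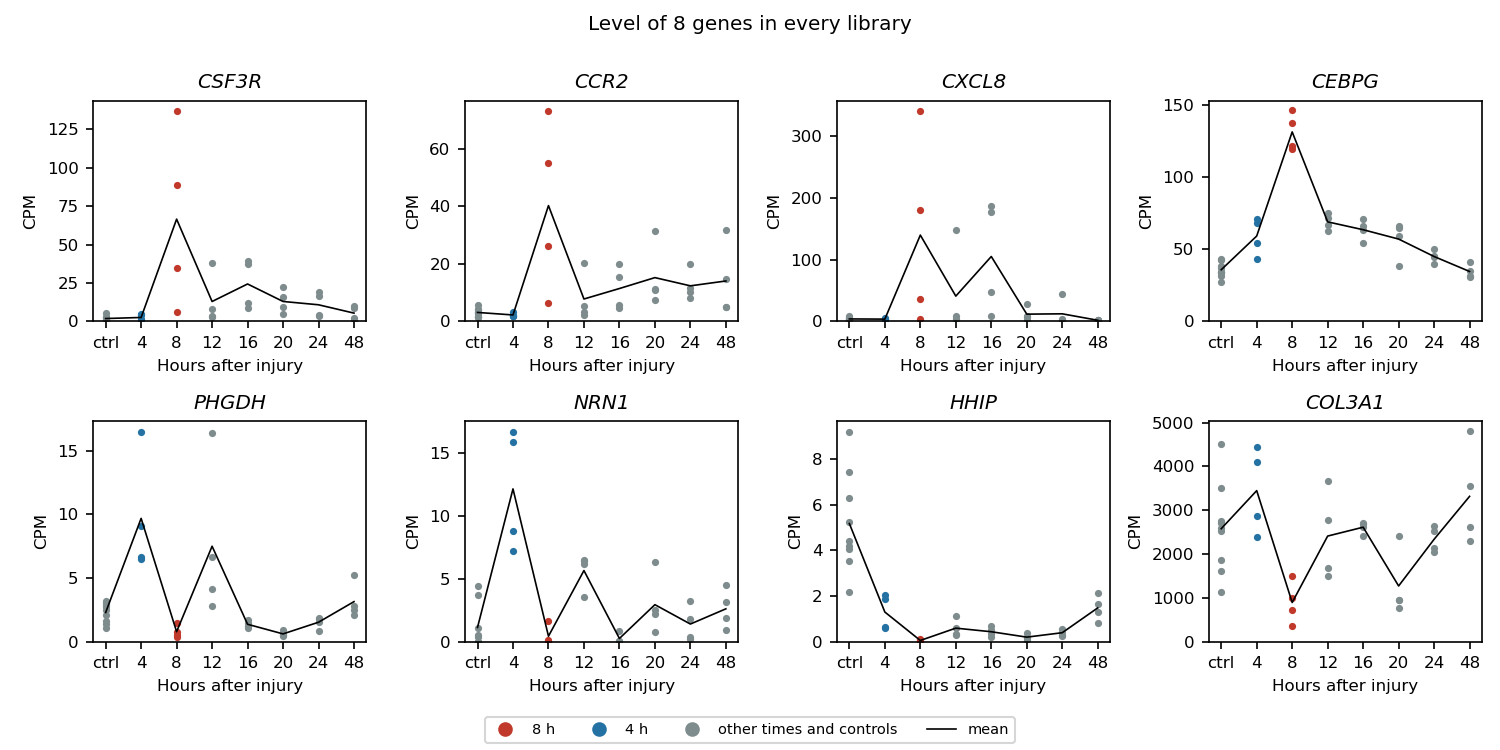
CPM of 8 genes in every library against time, with the 9 controls at the left end, 8 h in red, 4 h in blue and a line through the means. Mean CSF3R was 66.5 CPM at 8 h and 12.9 CPM at 12 h, mean PHGDH was 9.68 CPM at 4 h, 0.78 CPM at 8 h and 7.50 CPM at 12 h, and all 4 libraries of CEBPG at 8 h lay above every other library.

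The later times did not continue these changes in a straight line. Mean CSF3R was 1.82 CPM in controls, then 2.52 CPM at 4 h, 66.5 CPM at 8 h and 12.9 CPM at 12 h, followed by 24.3, 12.9, 10.8 and 5.35 CPM at the 4 later times. Mean PHGDH was 2.28 CPM in controls, then 9.68, 0.78, 7.50, 1.36, 0.60, 1.52 and 3.14 CPM over the same times. The 12 h group held libraries of 2 sets, and these differed within that time. PHGDH was at 6.68 and 16.4 CPM in the 12 h libraries of set 2 and at 2.83 and 4.10 CPM in those of set 4, while CSF3R was at 2.65 and 3.44 CPM in those of set 2 and at 7.89 and 37.7 CPM in those of set 4. At 20 h the same sets overlapped for both genes, with CSF3R at 4.75 and 22.1 CPM in set 2 and at 9.22 and 15.7 CPM in set 4. Among the controls, CSF3R was at 2.91 and 5.75 CPM in the 2 libraries of set 1 and at 0 to 2.62 CPM in the other 7. The part of the sets in the changes between 8 h and 4 h was not tested.

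Fibroblast genes fell as a list. Of 20 tested, 10 were called lower and 1 higher, against 15.4% called lower among all genes, with a median log2 change of -1.05 (-0.82 with the sets as a term). COL3A1, a fibrillar collagen (chromosome 15, 93556914 to 93595678), was at 363, 718, 1495 and 994 CPM at 8 h, against 4108, 2378, 2857 and 4447 CPM at 4 h, with controls at 1132 to 4509 CPM. The groups did not overlap, 3 of 4 libraries at 8 h were below all controls, and the log2 change was -1.95 ± 0.40 (SE, adjusted p = 0.00115). LUM, the collagen-binding proteoglycan lumican, was at 16.2, 24.9, 58.1 and 48.2 CPM at 8 h, against 190, 96.0, 111 and 141 CPM at 4 h, and COL1A2 fell by 1.84 ± 0.41 (SE, adjusted p = 0.00195). CD34, a surface protein of fibro-adipogenic progenitors and endothelium, fell by 1.55 ± 0.30 (SE, adjusted p = 0.000726) and by 2.00 with the sets as a term. MMP2, a gelatinase of fibroblasts, fell by 1.27. The fibroblast marker PDGFRA was not lower, at 35.5 to 81.0 CPM at 8 h and 15.3 to 71.9 CPM at 4 h. The fibroblast markers DCN and COL1A1 were lower at 8 h without overlap. Replicate 1 at 8 h, which had the highest medians of the neutrophil and macrophage lists, was the lowest 8 h library in 15 of the 20 genes, and replicate 3 at 8 h the highest in 18. The summed level of the list was 1747 to 5241 CPM at 8 h, 6289 to 9901 CPM at 4 h and 3031 to 11076 CPM in controls. The summed level of the macrophage list was 247 to 1380 CPM at 8 h, 199 to 359.8 CPM at 4 h and 114 to 287 CPM in controls, and the part of leukocyte RNA in the lower fibroblast levels was not tested.

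Pericyte, Hedgehog and Wnt genes fell alongside. Of 15 pericyte and smooth muscle genes, 7 were called lower and 1 higher, with a median log2 change of -0.55. Over all genes 15.4% were called lower and 16.0% higher. ABCC9, a subunit of the vascular potassium channel, was at 39.8, 36.2, 50.04 and 56.3 CPM at 8 h, against 128, 111, 91.2 and 127 CPM at 4 h (log2 change -1.33 ± 0.21 SE, adjusted p = 0.000126). CNN1 (calponin) and RGS5, a pericyte regulator of G protein signalling, fell by 1.34 and 1.16. Of 17 Hedgehog and Wnt modulators, 7 were called lower and 0 higher, with a median log2 change of -0.94 (-0.84 with the sets as a term; 4 lower without replicate 1 at 8 h). HHIP, a decoy receptor that binds Hedgehog ligands and a target of the pathway (chromosome 8, 83583735 to 83678368), had 0, 0, 1 and 1 counts at 8 h, against 18, 6, 11 and 17 counts at 4 h. The ratio of its summed, scaled counts was 0.0395, with an exact 95% interval of 0.00467 to 0.15 for counting error only, and the gene was called (adjusted p = 0.000317). HHIP was already below all controls (2.19 to 9.19 CPM) in the 4 libraries at 4 h, at 0.612 to 2.06 CPM. The Wnt antagonist DKK2 was at 2.80, 3.12, 4.79 and 2.76 CPM at 8 h, against 28.0, 9.68, 11.8 and 18.7 CPM at 4 h, and PTCH1, the Hedgehog receptor, and FZD4, a Wnt receptor, fell by 0.88 and 0.66; PTCH1 lost its call without replicate 4 at 4 h (adjusted p = 0.0519).

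Nerve and satellite cell genes gave small lists. Of 7 Schwann cell and nerve genes tested, 4 were called lower and 1 higher, against 15.4% and 16.0% of all genes. GFRA1, a receptor of glial cell line-derived neurotrophic factor, was at 3.61, 4.34, 6.47 and 6.29 CPM at 8 h, against 21.3, 11.6, 8.24 and 13.5 CPM at 4 h. Of 12 myogenic genes, 5 were called lower and 0 higher, but 1 without replicate 1 at 8 h and 3 without replicate 2 at 8 h. PAX7, the marker of satellite cells, was at 6.60, 6.51, 9.74 and 10.7 CPM at 8 h, against 9.03, 22.6, 16.1 and 14.7 CPM at 4 h (log2 change -0.90 ± 0.31 SE, adjusted p = 0.0271), with overlapping groups. The call of PAX7 was lost without replicates 1 or 2 at 8 h or replicate 2 at 4 h (adjusted p = 0.0934, 0.0893 and 0.110). MYH3, the embryonic myosin, fell by 1.58 and lost its call without replicate 1 at 8 h or replicate 1 at 4 h (adjusted p = 0.0609 and 0.121), with 119 CPM in replicate 1 at 4 h and 32.0 to 54.8 CPM in the other 3 libraries of that time.

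**Figure D4:**
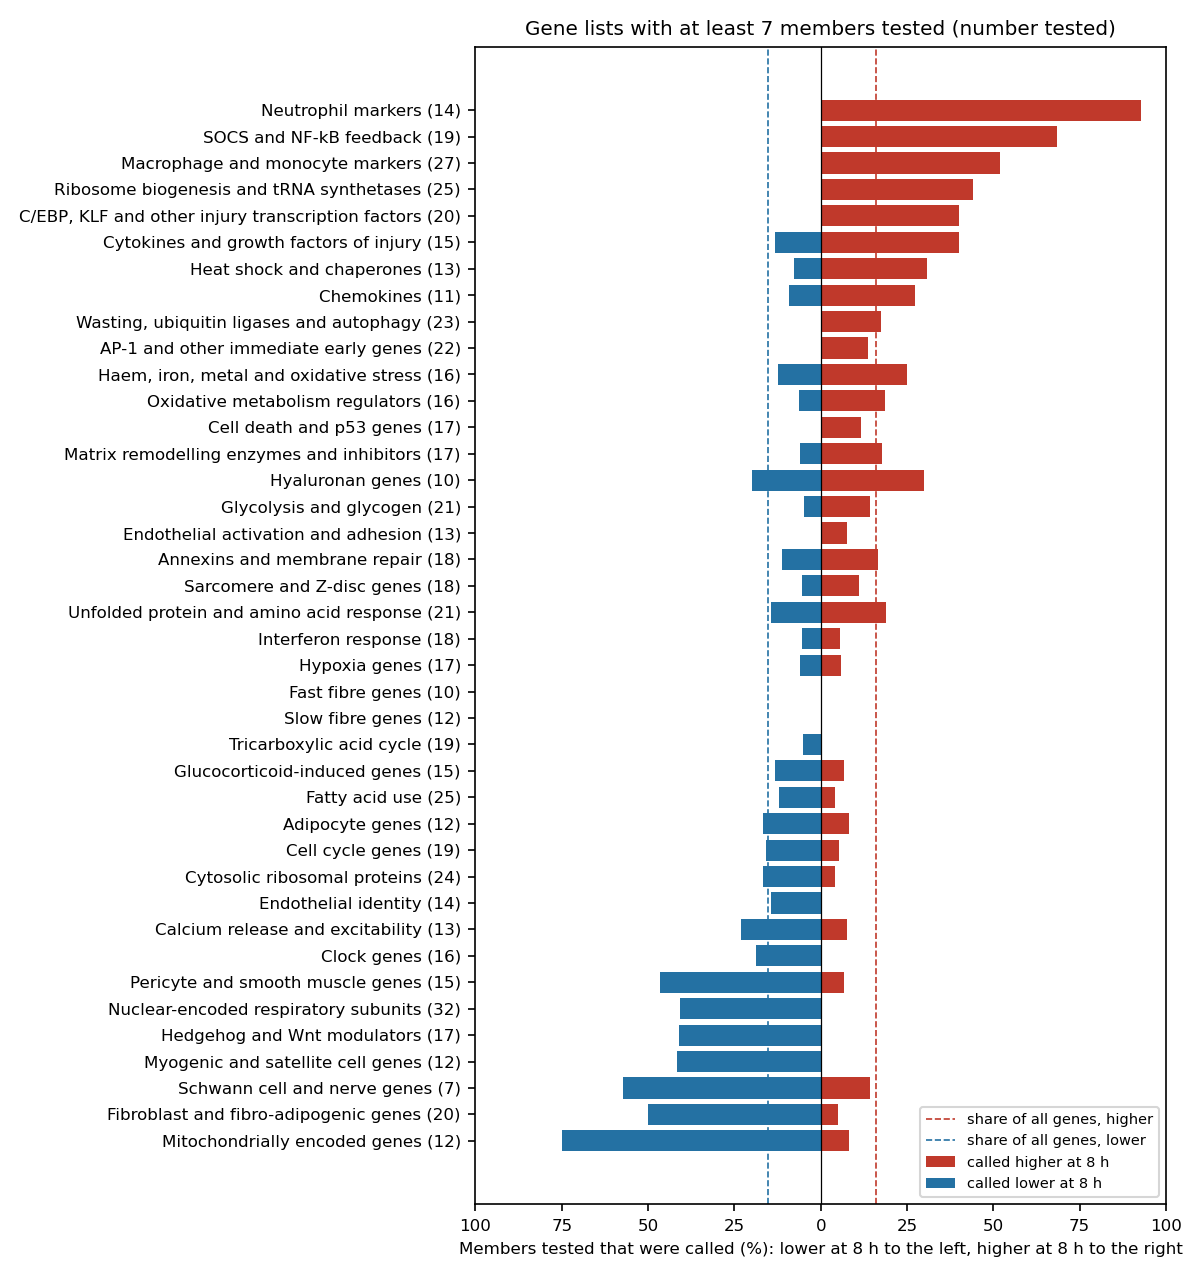
Share of the tested members of each list that were called lower (blue, left) or higher (red, right) at 8 h against 4 h, for the 40 lists with at least 7 members tested, with dashed lines at the 15.4% and 16.0% of all genes. Neutrophil markers reach 13 of 14 on the right. Mitochondrially encoded genes reach 9 of 12 on the left, with overlapping groups in each of these 9.

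Respiratory chain genes were lower at 8 h, and this depended on single libraries. The median log2 change of the 32 nuclear-encoded subunits tested was -0.70 (-0.18 with the sets as a term). Of these subunits 13 were called lower and 0 higher, against 15.4% and 16.0% of all genes. The count was 3, 5 and 4 without replicates 1, 2 or 3 at 8 h and 6 and 8 without replicates 1 or 3 at 4 h. NDUFA6, a complex I subunit, was at 48.3, 43.3, 42.2 and 78.7 CPM at 8 h, against 148, 88.5, 105 and 100 CPM at 4 h, and NDUFB8 and the cytochrome c oxidase subunit COX5B fell by 0.89 and 1.11. Of 12 mitochondrially encoded genes tested, 9 were called lower and 1 higher. Without replicates 1, 2 or 3 at 8 h or replicates 1 or 3 at 4 h, 1 or 2 were called lower. Their median log2 change was -0.89 (-0.34 with the sets as a term). In 0 of the 12 were the 8 h libraries all below those at 4 h, and in 1 they were all above. Over all genes 24.3% did not overlap in either direction. ND3 was at 759, 792, 684 and 1456 CPM at 8 h, against 3300, 1369, 2150 and 1608 CPM at 4 h, and replicate 4 at 8 h lay above the lowest 4 h library. ND4L rested on replicate 3 at 4 h, where it was at 38.6 CPM against 1.33 to 3.77 CPM in the others, and lost its call without it (adjusted p = 0.159). ND6, the only one called higher, lies on the other strand from the other protein genes of the mitochondrial genome and is among the genes that define the sets.

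Contractile genes did not pass the test as a class. Of 12 slow fibre genes and 10 fast fibre genes tested, edgeR called 0, with 1 slow and 0 fast genes at an unadjusted p under 0.05. The log2 change was above 0 in 0 of the slow and 1 of the fast genes. The median log2 changes were -0.81 and -0.46 (-0.24 and 0.17 with the sets as a term). ATP2A2, the calcium pump of slow fibres, was at 1225, 809, 938 and 1605 CPM at 8 h, against 2263, 2219, 3583 and 3355 CPM at 4 h, without overlap, and its adjusted p was 0.0519. MYL1, a fast myosin light chain, was at 9315 to 14888 CPM at 8 h and at 14966 to 22761 CPM at 4 h (adjusted p = 0.221). Among excitability genes, CHRND, the acetylcholine receptor delta subunit that spreads along denervated fibres, rose to 30.9, 17.2, 13.4 and 6.62 CPM at 8 h, against 3.43, 4.69, 2.40 and 0.878 CPM at 4 h (log2 change 2.58 ± 0.55 SE, adjusted p = 0.00144). KCNJ2, an inward rectifier potassium channel, fell by 1.27, and the Z-disc gene MYOT fell by 1.25 but was called in 3 of the 8 fits that each left out a library.

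In fuel metabolism, the glucose-trapping enzyme HK2 was at 767, 621, 691 and 538 CPM at 8 h, against 80.1, 269, 237 and 121 CPM at 4 h, with controls at 50.5 to 193 CPM (log2 change 1.89 ± 0.47 SE, adjusted p = 0.00407; 0.10 with the sets as a term). PFKFB3, which makes the activator of phosphofructokinase, rose by 2.17. CD36, a fatty acid transporter, was at 127, 145, 224 and 361 CPM at 8 h, against 561, 416, 485 and 748 CPM at 4 h, and fell by 1.37, and LPL, lipoprotein lipase, fell by 1.43. Without replicates 1 or 2 at 8 h both lost their calls (adjusted p = 0.0609 and 0.0518 for CD36, 0.0770 and 0.0815 for LPL), and LPL also without replicate 4 at 4 h (adjusted p = 0.0673). FABP4, a fatty acid carrier of adipocytes and endothelium, fell by 1.65 ± 0.37 (SE, adjusted p = 0.00215). As lists, glycolysis (3 of 21 higher, 1 lower) and fatty acid use (1 of 25 higher, 3 lower) had shares below those of all genes. The 3 lower calls in fatty acid use were 0 without replicates 1 or 2 at 8 h, 1 without replicate 4 at 4 h and 5 without replicate 4 at 8 h.

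Of 23 wasting, ubiquitin ligase and autophagy genes tested, 4 were called higher and 0 lower, a share near the 16.0% of all genes, and 2 were called higher without replicates 1 or 2 at 8 h or replicate 4 at 4 h. CTSL, a lysosomal protease, was at 69.2, 58.0, 35.2 and 8.61 CPM at 8 h, against 3.20, 6.52, 9.12 and 4.39 CPM at 4 h, and SQSTM1, the autophagy receptor p62, was at 1796, 2151, 1658 and 1505 CPM at 8 h, against 697, 963, 885 and 574 CPM at 4 h. The groups overlapped for CTSL and not for SQSTM1, whose log2 change was 1.19 ± 0.27 (SE, adjusted p = 0.00213). Of the clock genes 3 of 16 were lower, a share near the 15.4% of all genes, among them the repressor BHLHE41 (log2 change -1.46 ± 0.28 SE, adjusted p = 0.000687) and HLF (-1.32 ± 0.34 SE, adjusted p = 0.00493). The endothelial lists stayed near the background or below it: 2 of 14 identity genes were lower, among them the endomucin gene EMCN (by 0.92), and 1 of 13 activation genes was higher. The identity count was 1 lower without replicates 1 or 2 at 8 h or replicate 4 at 4 h, and 2 and 3 identity genes were called higher without replicate 4 at 8 h and without replicate 3 at 4 h. The activation count was 5 without replicate 4 at 8 h, 3 without replicate 2 at 4 h and 0 without replicates 1 or 2 at 8 h or replicate 4 at 4 h. ICAM1, which binds leukocyte integrins, was at 58.7, 55.7, 43.8 and 22.0 CPM at 8 h, against 9.60, 42.8, 37.8 and 17.1 CPM at 4 h, and did not pass the test (adjusted p = 0.123). Of 24 cytosolic ribosomal proteins, whose many pseudogenes can split reads, 4 were lower and 1, RPL22, was higher. The lower share was near the 15.4% of all genes, and the higher share was below 16.0%. The lower count was 0 without replicates 1, 2 or 3 at 8 h or replicate 1 at 4 h.

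The remaining falls by smallest p were FOXN3, a forkhead repressor, CFAP418, LRIG3, a membrane protein with leucine-rich repeats, and TESK2, a kinase of the actin regulator cofilin. FOXN3 was at 28.8, 28.1, 28.1 and 37.2 CPM at 8 h, against 97.9, 81.3, 115 and 76.4 CPM at 4 h, and its log2 change was -1.60 ± 0.21 (SE, adjusted p = 5.01e-05). All 4 genes were below all 9 controls in all 4 libraries at 8 h. CFAP418, LRIG3 and TESK2 fell by 2.16, 2.12 and 1.51 on the log2 scale.

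**Figure D5:**
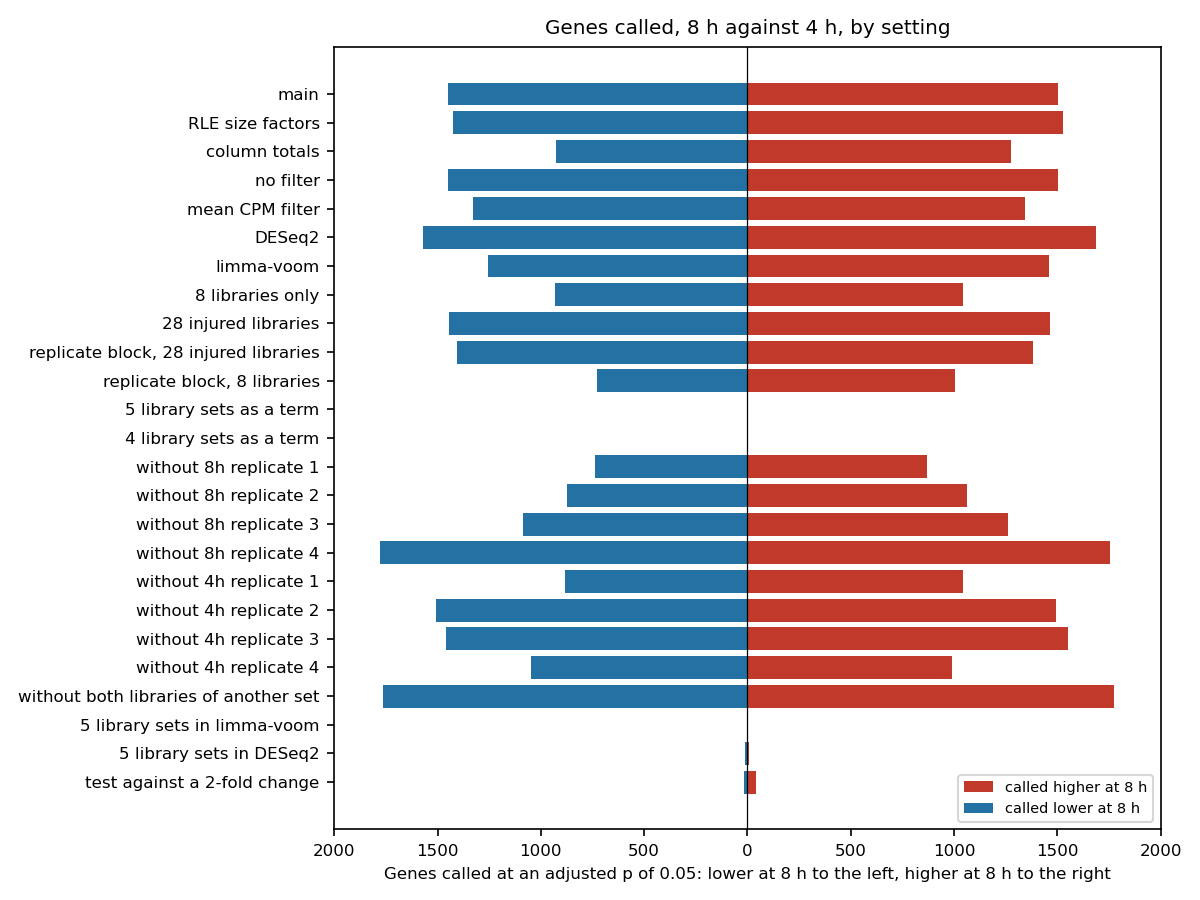
Number of genes called lower (left) and higher (right) at 8 h against 4 h at an adjusted p of 0.05 for each way of processing. The top bar is the fit of the text with 1502 higher and 1448 lower, and the fits with the library sets as a term show 0 genes in edgeR and limma-voom and 19 in DESeq2.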

How the data were processed

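RNA from flash-frozen muscle was extracted with Trizol and sequenced as 150 bp read pairs on a HiSeq-2500 after NEBNext Ultra library preparation, per the labels' protocols. The submitters' processing notes list Trimmomatic, HISAT2 2.2.1, HTSeq and the build Sscrofa11.1, without the strand setting. The authors deposited raw counts per gene, without normalization. The largest count of every row was at least 101, so rows were selected before deposit and column totals are not the full depth.

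The 37 libraries were fitted together with edgeR 4.0.16 in R 4.3.3 (TMM, filterByExpr, robust quasi-likelihood test, 1 term with 8 groups), and 8 h minus 4 h was tested over 9411 genes with Benjamini-Hochberg adjustment at 0.05. The script was tested on simulated data. CPM values use TMM-scaled totals. SE is the log2 change divided by the root of F. Library sets were assigned from expression: the highest totals, C1QBP above 8 CPM, NDUFAF8 below 4 CPM, ND6 up to 32 CPM, and the rest.

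Genes were named by rule: the 12 largest changes in each direction among called genes whose groups did not overlap and whose mean reached 5 CPM in 1 group, the 5 smallest p-values in each direction, up to 4 members per list by p, and the genes that define the sets; the text gives a selection of these, and 3 genes are not reported here. The members and the 43 lists were chosen with earlier results of these data known. Alternatives were other normalizations and filters, DESeq2 1.42.0, limma 3.58.1 voom, fewer libraries, a replicate block, the sets as a term and leaving out each library; the fits without both odd libraries and with sets in DESeq2 or voom were chosen after seeing the data. Gene coordinates are from a RefSeq gene table of Sscrofa11.1.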

Additional observations from a re-analysis of the deposited data

Results flagged for a closer look

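In groups of 4 libraries, a value was picked out where the highest or lowest library stood apart from the nearest other by more than Dixon's 95% critical share of the group's range, which chance does in about 1 in 20 groups. Of 214 groups (107 named genes at 2 times), 15 held such a value. Replicate 4 at 8 h held 5 of them and replicate 3 at 4 h held 6. The set of each of these libraries differs from that of the other 3 of its time. Some of these values are in TMEM238, ND6, NDUFAF8 and MRPL57, which were named because their levels define the sets or go with them. The tally is therefore not independent of the sets.

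At 8 h, replicate 4 was far above the others for FOXN3 (37.2 CPM), MYOT (1365 CPM), NDUFA6 (78.7 CPM) and ND3 (1456 CPM) and far below them for MRPL57 (0.110 CPM). Replicate 1 at 8 h was far above the others for NRN1 (1.63 CPM). At 4 h, replicate 3 was far above the others for TMEM238 (0.702 CPM), ZNF622 (24.1 CPM), ND4L (38.6 CPM), ND6 (22.2 CPM), NDUFAF8 (36.3 CPM) and MRPL57 (3.74 CPM). Replicate 1 at 4 h was far above for AOX1 (17.1 CPM), replicate 2 for CCR2 (3.36 CPM) and replicate 4 for PTCH1 (20.1 CPM).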

How the results depend on the processing

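Against 2950 genes called between 8 h and 4 h, 1735 were called with a replicate block on the 8 libraries (1517 of them shared), 59 in a test against a 2-fold change, 0 with 5 sets, 0 with 4 sets, 0 with 5 sets in limma-voom and 19 with 5 sets in DESeq2 (17 shared). In those set fits 0, 0, 0 and 8 were called higher, against 1502, 0, 0, 0 and 11 lower, against 1448, and 0, 0, 0 and 16 with at least a 2-fold change, against 1320. Called lower were also 926 with column totals (57.9% of calls were then higher, against 50.9%, and the median of all genes 0.06), 933 with the 8 libraries alone and 728 with the replicate block on them. Without both libraries of another set 2027 changed at least 2-fold. With the 8 libraries alone, 1975 genes were called in all, 1778 of them shared with the main fit. Leaving out 1 library gave 1610 to 3536 called, 871 to 1755 higher, 739 to 1781 lower and 831 to 1766 changed at least 2-fold. Correlations of deviations were -0.250 to 0.410 for same-numbered libraries and -0.469 to 0.392 for other numbers. These ranges overlap, and the sets differ within each time, so they cannot tell whether the numbers pair animals. With the replicate block, the 28 injured libraries gave 2791 calls. Of 161 called genes under the naming rule, 12 reversed with 5 sets, 9 with 4 sets, 11 in voom and 12 in DESeq2. Among those in the text, the log2 change turned negative for CXCL8 (-0.36 with 4 sets) and, with 5 sets, 4 sets, voom and DESeq2 in that order, for CEBPA (-0.28, -0.065, -0.34 and -0.28), C1QBP (-2.20, -1.80, -0.83 and -1.51) and MRPL57 (-0.90, -0.71, -0.83 and -0.85). C1QBP is used to assign set 1, so its reversal is not independent of the sets. The cause of the other reversals was not tested.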
